A study of Mus musculus with 8 samples.

Results

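The 10 genes described here encode the subunits of the transcription factor NF-κB and its main inhibitors, and they were chosen by name. They are the 5 subunit genes Nfkb1, Nfkb2, Rel, Rela and Relb, the 3 classical inhibitor genes Nfkbia, Nfkbib and Nfkbie, the nuclear inhibitor-type gene Nfkbiz, and Tnfaip3, which encodes the ubiquitin-editing enzyme A20. All 10 were found among the 52636 Ensembl identifiers of the deposited count table through their GENCODE vM21 symbols. NF-κB dimers are held in the cytoplasm of resting cells by IκB proteins, and lipopolysaccharide sensed by Toll-like receptors activates the IKK kinase complex, which marks IκB proteins for destruction so that the dimers enter the nucleus. Among the genes that NF-κB switches on are several of its own subunits and inhibitors, so the pathway carries its own negative feedback. In microglia, the resident macrophages of the brain, this pathway drives much of the inflammatory response to bacterial products.

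Microglia of wild-type mice, C57BL/6 in the labels and C57BL/6N in the paper, were shaken off mixed glial cultures of neonatal brains and kept in medium with serum and 10 ng/ml of the growth factor CSF-1. They then received either vehicle or LPS, a lipopolysaccharide, at 5 µg/ml for 24 h, with 4 RNA libraries per group, so every value describes the state of the cells at this single time. Total counts were 22796052, 22595657, 26129375 and 21370879 in the vehicle libraries, in the order of their replicate numbers, and 20071921, 22529706, 30604447 and 22581615 in the LPS libraries. The comparison asks how the transcripts of NF-κB subunits and inhibitors differed between LPS and vehicle, and since whole cultures were sequenced, fewer cells of a type and less RNA per cell cannot be told apart.

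LPS replicate 3 stood apart from the rest of its group. Across 8010 well-expressed genes, the SD of its deviation from the mean of its group was 0.534 on the log2 scale, against 0.236 to 0.400 in LPS replicates 1, 2 and 4 and 0.220 to 0.331 in the vehicle libraries. Its deviation followed base composition, with a Spearman correlation of -0.602 with transcript GC content across 8006 genes, which are not independent replicates. The same correlation lay between -0.281 and 0.264 in the vehicle libraries, while the 0.288, 0.416 and 0.501 in LPS replicates 1, 2 and 4 are no independent contrast, since each was measured against a mean that includes replicate 3. GC-rich transcripts were low in LPS replicate 3 relative to the other libraries of its group, and 8 of the 10 NF-κB genes measured lower there than in the mean of the other LPS libraries, with Nfkb1 and Rel as the exceptions. Log2 fold changes of the NF-κB genes are given with and without this library.

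Levels are counts scaled to library size (CPM) after TMM normalization, which scales the libraries to one another under the assumption that most genes do not change. Changes were tested with edgeR on the 13847 genes with enough counts for its filter, and a gene was called at an adjusted p under 0.05. All 10 NF-κB genes passed the filter, and 9 of them were called higher after LPS, where 30.3% of all tested genes were called higher and 64.1% in either direction. Under scaling to total counts alone 6 were called higher, where 1980 of all 13847 tested genes were called higher and 8439 lower. Rela, Relb and Nfkbie turned to log2 fold changes of -0.093, -0.36 and -0.036 under that scaling. With TMM none of the 10 was called lower by edgeR, 0 were lower at an unadjusted p under 0.05 and 0 were lower with DESeq2, where 33.8% of all tested genes were called lower by edgeR. The median log2 fold change of all tested genes was -0.11 with TMM, and it shifted by -0.68, to -0.79, with total counts alone, and by -0.16 with upper quartile normalization, under which no NF-κB gene changed direction. Each of the 10 lay above that median of -0.79 under total counts alone. For the 6 still called there, the log2 fold changes were 0.72 for Nfkb2, 0.64 for Rel and 2.34 for Nfkbia. They were 1.35 for Nfkbib, 2.94 for Nfkbiz and 3.97 for Tnfaip3. The TMM factors behind the shift of the median ran from 1.21 to 1.32 in vehicle and from 0.701 to 0.833 in LPS libraries. In 8 of the 10 genes every LPS library lay above every vehicle library, as in 28.7% of all tested genes, and the groups overlapped for Relb and Nfkbie.

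**Figure D1:**
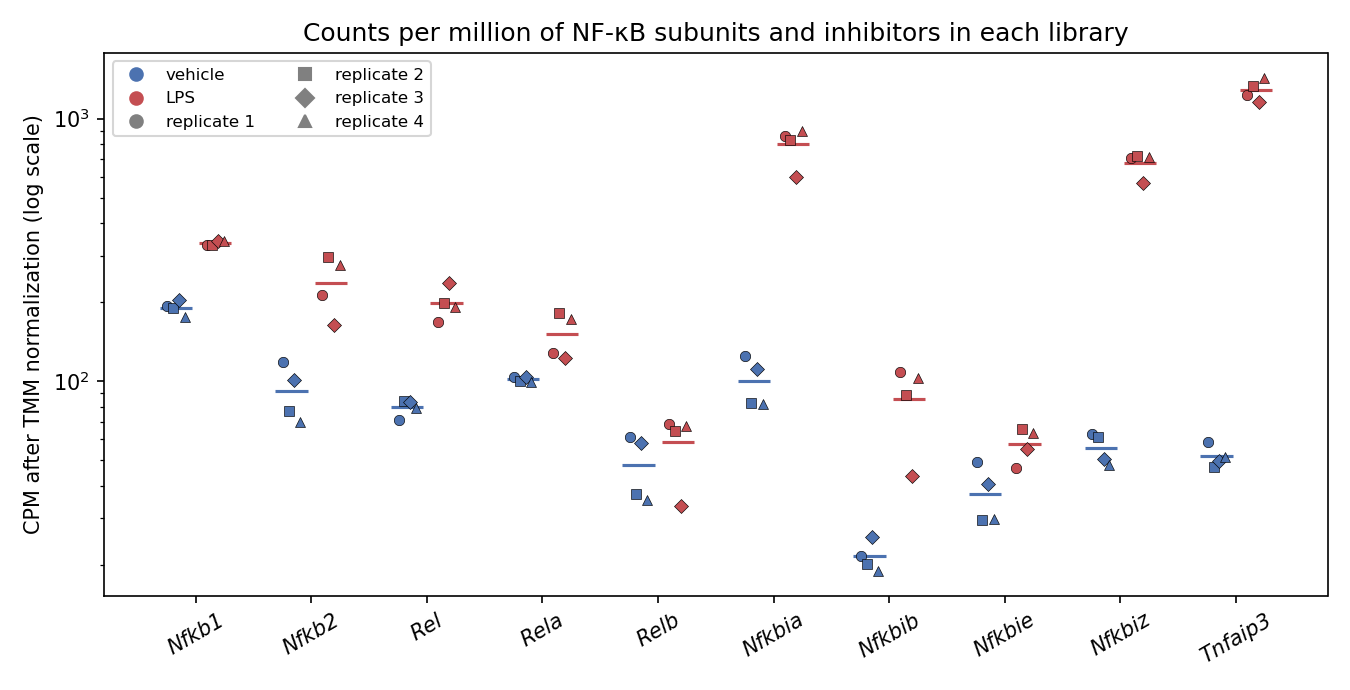
CPM after TMM normalization (log axis) of the 10 NF-κB genes in 4 vehicle (blue) and 4 LPS (red) libraries, with a shape per replicate and a bar at the mean of each group. Tnfaip3 runs from 47.1 to 58.7 in vehicle and from 1157 to 1431 after LPS, while the groups of Relb and Nfkbie overlap and, with total counts alone, Rela, Relb and Nfkbie change sign.

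Among the subunits, Nfkb1 (ENSMUSG00000028163, chr3:135584655-135691547, minus strand, GRCm38 as for all positions here) encodes p105, the precursor of the DNA-binding subunit p50. Nfkb1 measured 193, 189, 203 and 175 CPM in vehicle replicates 1 to 4 and 330.0, 329.8, 341 and 340.3 CPM in LPS replicates 1 to 4. The libraries of each group lay close together, and the lowest LPS value was far above the highest vehicle value. The mean went from 190.0 ± 11.7 to 335 ± 6.19 CPM (SD, n = 4 each), a log2 fold change of 0.82 (SE 0.095) with an edgeR adjusted p of 5.16e-05. Without LPS replicate 3 it was also 0.82, and with total counts alone it was 0.14 and was not called.

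Nfkb2 (ENSMUSG00000025225, chr19:46304320-46312385, plus strand) encodes p100, the precursor of p52, which also acts as an inhibitor of NF-κB dimers. Nfkb2 measured 118, 77.1, 101 and 69.7 CPM in vehicle and 212, 296, 163 and 277 CPM after LPS. Vehicle replicates 1 and 3 were higher than replicates 2 and 4, LPS replicate 3 was the lowest of its group, and the groups did not overlap. The mean of 91.5 ± 22.1 CPM in vehicle and 237 ± 60.9 CPM after LPS gave a log2 fold change of 1.37 (SE 0.23, edgeR adjusted p 0.000512), and 1.52 without LPS replicate 3. Exons of Psd and AC114539.1 on the opposite strand cover 18.1% of the exon bases of Nfkb2, and whether counting used the strand is not stated. Psd reached at most 6.30 CPM in any library, but AC114539.1 is not in the count table, so its level is unknown.

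Rel (ENSMUSG00000020275, chr11:23736847-23770970, minus strand) encodes c-Rel, a subunit with a transactivation domain that is prominent in immune cells. It measured 71.3, 84.2, 82.9 and 79.1 CPM in vehicle and 168, 198, 236 and 192 CPM after LPS. All LPS libraries were above all vehicle libraries, and here LPS replicate 3 was the highest of its group. Rel rose from a mean of 79.4 ± 5.83 to 199 ± 27.9 CPM, with a log2 fold change of 1.32 (SE 0.12, edgeR adjusted p 1.31e-05) and of 1.24 without LPS replicate 3.

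Rela (ENSMUSG00000024927, chr19:5637483-5648130, plus strand) encodes p65, the transactivating partner of p50 in the most common NF-κB dimer. Its level was 104, 100.1, 104 and 99.0 CPM in vehicle and 128, 182, 122 and 173 CPM after LPS. Vehicle libraries were nearly equal, whereas LPS replicates 2 and 4 stood well above replicates 1 and 3, and the groups did not overlap. The mean was 102 ± 2.46 CPM in vehicle and 151 ± 30.4 CPM after LPS, with a log2 fold change of 0.57 (SE 0.14, edgeR adjusted p 0.00540) that was 0.67 without LPS replicate 3 and 0.91 with each library's trend with GC content removed, and turned to -0.093 with total counts alone.

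Relb (ENSMUSG00000002983, chr7:19606217-19629438, minus strand) encodes the subunit that pairs with p100 and p52 in the non-canonical branch of the pathway. It measured 61.4, 37.1, 58.1 and 35.3 CPM in vehicle and 68.6, 64.6, 33.3 and 67.4 CPM after LPS. Vehicle replicates 1 and 3 were far above replicates 2 and 4, LPS replicate 3 was below every vehicle library, and the other LPS libraries were above all of them. With means of 48.0 ± 13.7 and 58.5 ± 16.9 CPM the log2 fold change was 0.28 (SE 0.26) and was not called (edgeR adjusted p 0.361), and it was -0.36 with total counts alone. Without LPS replicate 3 it was 0.48 (adjusted p 0.0644, the lowest in a range of 0.0644 to 0.656 over all alternatives), so Relb stayed uncalled under each alternative tried. It was 0.46 without vehicle replicate 1 or 3, 0.15 with upper quartile normalization and 0.44 with the GC trend removed, an alternative chosen after seeing the data.

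The classical inhibitors bind NF-κB dimers through ankyrin repeats and cover their nuclear localization signals. Nfkbia (ENSMUSG00000021025, chr12:55489410-55492647, minus strand) encodes IκBα, the inhibitor that is degraded and made anew most rapidly after a stimulus. Nfkbia measured 124, 82.7, 111 and 82.0 CPM in vehicle and 862, 832, 599 and 898 CPM after LPS. LPS replicate 3 was the lowest of its group and still lay far above the highest vehicle library. Nfkbia rose from 99.9 ± 21.0 to 798 ± 135 CPM, a fold change of 7.98 and a log2 fold change of 3.00 (SE 0.20, edgeR adjusted p 1.71e-06), and 3.12 without LPS replicate 3.

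Nfkbib (ENSMUSG00000030595, chr7:28758251-28767512, minus strand) encodes IκBβ, which is broken down more slowly than IκBα. It measured 21.6, 20.03, 25.4 and 18.9 CPM in vehicle and 108, 88.4, 43.5 and 103 CPM after LPS. The groups did not overlap, and LPS replicate 3 was far below the other LPS libraries. Means of 21.5 ± 2.85 and 85.7 ± 29.3 CPM gave a log2 fold change of 1.99 (SE 0.26, edgeR adjusted p 0.000117), and 2.22 without LPS replicate 3. Exons of Ccer2 and Sirt2 on the opposite strand cover 16.4% of its exon bases, and Sirt2 measured 106 to 124 CPM in vehicle and 147 to 166 CPM after LPS. Whether reads of these neighbours were counted for Nfkbib was not tested.

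Nfkbie (ENSMUSG00000023947, chr17:45555703-45563169, plus strand) encodes IκBε, an inhibitor that acts mainly on dimers with p65 or c-Rel. Nfkbie measured 49.1, 29.5, 40.4 and 29.9 CPM in vehicle and 46.6, 65.6, 55.2 and 63.6 CPM after LPS. Vehicle replicate 1 was above LPS replicate 1, and the other LPS libraries were above all vehicle libraries. The mean of 37.2 ± 9.37 CPM in vehicle and 57.8 ± 8.72 CPM after LPS corresponded to a log2 fold change of 0.63 (SE 0.18, edgeR adjusted p 0.0132), which was 0.66 without LPS replicate 3 and -0.036 with total counts alone. Nfkbie was the member called with the highest adjusted p, and it was not called at the stricter threshold of 0.01.

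Nfkbiz (ENSMUSG00000035356, chr16:55811375-55838899, minus strand) encodes IκBζ, an inducible nuclear IκB protein that binds p50 and promotes transcription of late inflammatory genes such as Il6. Nfkbiz measured 63.1, 61.2, 50.4 and 48.0 CPM in vehicle and 709, 717, 568 and 714 CPM after LPS. LPS replicates 1, 2 and 4 were nearly equal, replicate 3 was below them, and all were far above vehicle. Nfkbiz rose from 55.7 ± 7.58 to 677 ± 72.9 CPM, a fold change of 12.2 and a log2 fold change of 3.60 (SE 0.15, edgeR adjusted p 1.52e-07), and 3.69 without LPS replicate 3.

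Tnfaip3 (ENSMUSG00000019850, chr10:19000910-19015657, minus strand) encodes A20, which edits ubiquitin chains on signalling proteins and so restrains the activation of IKK. Tnfaip3 measured 58.7, 47.1, 49.5 and 51.4 CPM in vehicle and 1225, 1334, 1157 and 1431 CPM after LPS. Both groups were tight, with no overlap, and LPS replicate 3 was again the lowest of its group. From 51.7 ± 5.00 to 1287 ± 121 CPM, Tnfaip3 had the largest rise of the 10 genes, a fold change of 24.9 and a log2 fold change of 4.64 (SE 0.14, edgeR adjusted p 3.55e-08), and 4.69 without LPS replicate 3. Ordered by log2 fold change among all 13847 tested genes, Tnfaip3 stood at place 277, Nfkbiz at 430, Nfkbia at 573 and Nfkbib at 988. The subunits followed with Nfkb2 at place 1587, Rel at 1662, Nfkb1 at 2728, Rela at 3580 and Relb at 4901, and Nfkbie lay among them at 3368.

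**Figure D2:**
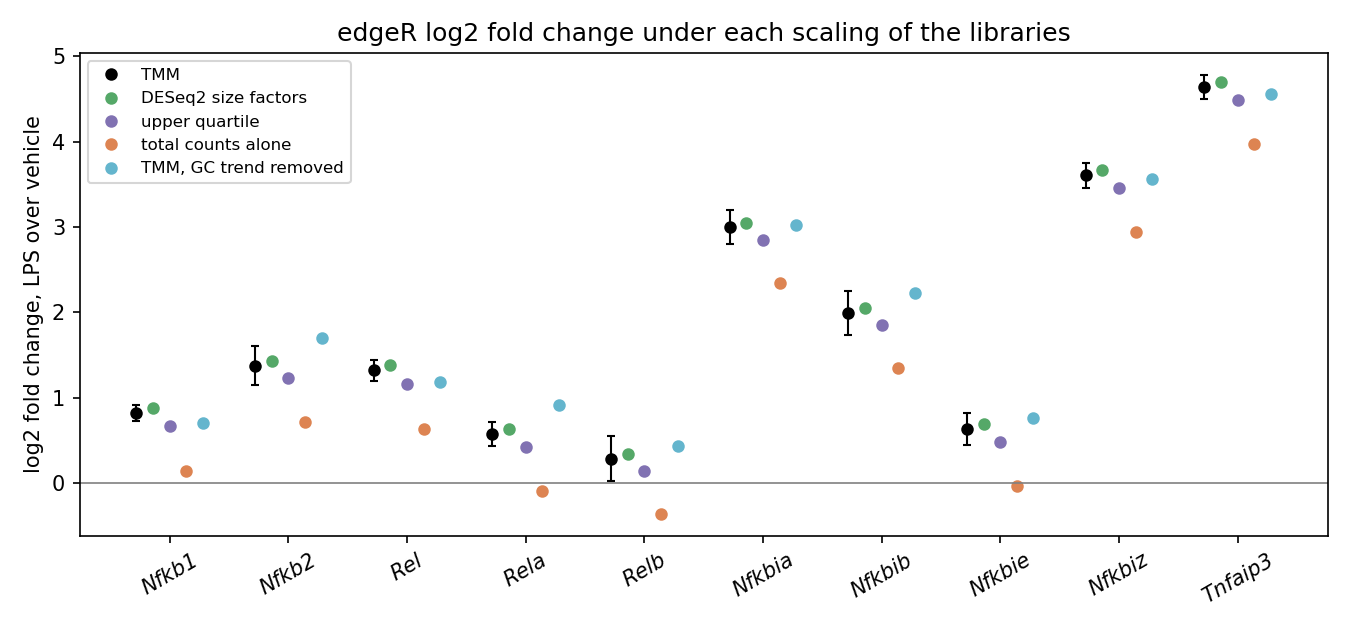
Log2 fold change of each NF-κB gene, LPS over vehicle, from edgeR under TMM (black, with SE bars), under 3 other scalings of the libraries, and under TMM with the GC trend of each library removed. Values for total counts alone lie lowest for every gene, and Rela, Relb and Nfkbie are below 0 there at -0.093, -0.36 and -0.036.

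The NF-κB genes differed in base composition, and those low in LPS replicate 3 were not all GC-rich. Across the same 8006 genes the median GC content of transcripts was 49.1%, with quartiles at 44.4% and 53.8%. Nfkb2, Rela, Nfkbib, Relb and Nfkbie, at 59.4%, 59.4%, 58.8%, 56.8% and 55.4%, were above the upper quartile, Nfkb1 at 44.9% was near the lower one, and Rel at 42.5% was below it. Nfkbia at 52.9%, Nfkbiz at 50.1% and Tnfaip3 at 47.1% lay between the quartiles, and all were also lower in LPS replicate 3. Relative to the mean of the other LPS libraries, LPS replicate 3 was lower by a log2 difference of -1.19 for Nfkbib, -1.003 for Relb, -0.67 for Nfkb2 and -0.38 for Rela. After the GC trend was removed the same differences were -0.51, -0.54, 0.080 and 0.36. For Rel the difference of 0.34 became 0.011, and for Nfkbia -0.53 became -0.42. For the other genes it grew in size, from -0.20 to -0.39 for Tnfaip3, from -0.33 to -0.39 for Nfkbiz, from 0.033 to -0.24 for Nfkb1 and from -0.069 to 0.25 for Nfkbie. With the GC trend removed, all 4 LPS libraries lay above the highest vehicle library for each of the genes except Relb, where 3 did, and the same 9 genes were called. Of all 13847 tested genes, 4320 were called higher and 4944 lower in this setting. The share of all genes that separated in this way is not given here. A further split ran through the vehicle group, where replicates 1 and 3 exceeded replicates 2 and 4 by log2 differences of 0.72 for Relb, 0.58 for Nfkbie, 0.57 for Nfkb2 and 0.51 for Nfkbia. The deviations of vehicle replicates 1 and 3 from their group had Spearman correlations with GC content of 0.264 and 0.094. Those of replicates 2 and 4 had -0.183 and -0.281. With transcript length the correlations were -0.057 and -0.323 in replicates 1 and 3, and 0.257 and 0.255 in replicates 2 and 4. The cause of this split was not tested.

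Levels of different genes were compared per length, as RPKM, the CPM divided by the kilobases of a gene's exons. In vehicle, Nfkbia had the highest level of the 10 genes with 62.1 ± 13.1 RPKM (SD, n = 4), followed by Rela with 33.1 ± 0.80 and Nfkb2 with 19.95 ± 4.82. Nfkb1 had 15.8 ± 0.97 RPKM, below Nfkb2 by less than the SD of the latter, and the RPKM means of Relb, Nfkbie, Nfkbiz, Rel and Nfkbib then ran closely from 12.3 to 9.91, with neighbours in this order that differed by less than their SD. Tnfaip3 was the lowest at 7.15 ± 0.69 RPKM. After LPS, Nfkbia remained the highest at 495 ± 83.9 RPKM, Tnfaip3 moved from place 10 to place 2 with 178 ± 16.7, and Nfkbiz from place 7 to place 3 with 135 ± 14.5. Next came Nfkb2 with 51.7 ± 13.3, Rela with 49.2 ± 9.90 and Nfkbib with 39.5 ± 13.5 RPKM, which did not differ beyond their spread from one to the next. Nfkb1 with 27.8 ± 0.51 and Rel with 26.6 ± 3.74 RPKM were also within their spread of each other, and Nfkbie with 19.0 ± 2.86 and Relb with 15.1 ± 4.34 RPKM were the lowest. The place of Nfkb1 depended on the length used, since its exons in all transcripts together are much longer than its longest transcript, by which it had 45.8 RPKM in vehicle and 80.8 after LPS.

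Shares within a library do not depend on how libraries are scaled to each other, but an effect of base composition on a library can reach them. Rela made up 33.5%, 37.9%, 34.2% and 39.5% of the summed RPKM of the 5 subunits in vehicle and 26.8%, 30.5%, 27.7% and 29.9% after LPS. Every LPS library was below every vehicle library, with means of 36.3% ± 2.89 and 28.7% ± 1.76, but with the GC trend removed the groups overlapped, with LPS replicate 3 at 35.4%, above vehicle replicates 1 and 3, and means of 34.4% and 30.5%. The share of Rel was 9.46%, 13.1%, 11.2% and 13.0% in vehicle and 14.5%, 13.6%, 22.0% and 13.7% after LPS. These groups did not overlap either, although LPS replicates 2 and 4 were only just above vehicle replicate 2 and LPS replicate 3 was far above the rest, and the LPS mean without it was 13.9%. With the GC trend removed this separation was lost, with 11.3% to 14.3% in vehicle and 13.5% to 15.2% after LPS, and LPS replicate 3 was at 13.7%. Nfkb2 went from 21.5% ± 3.08 to 30.0% ± 3.77, with an overlap because vehicle replicate 1 at 25.5% was above LPS replicate 3 at 24.8%. Between libraries of equal number, which are not stated to share a culture, the share of Nfkb2 rose in all 4 pairs. With the GC trend removed the groups of Nfkb2 did not overlap, at 17.8% to 23.5% and 29.0% to 33.5%. Relb held 13.3% ± 2.48 in vehicle and 8.77% ± 2.22 after LPS, and Nfkb1 17.2% ± 1.02 and 16.6% ± 2.53, both with overlapping groups. By pairs, the share of Relb fell in all 4 and that of Nfkb1 rose in 2 and fell in 2. With the GC trend removed the share of Nfkb1 fell in all 4 and its groups did not overlap, with 18.7% to 19.8% in vehicle and 12.8% to 18.4% after LPS, while those of Relb still overlapped. By pairs in that setting, the share of Nfkb2 rose and that of Relb fell in all 4. That of Rel rose in 3 and fell in 1, and that of Rela fell in 3 and rose in 1. By the longest transcript, Nfkb1 held the largest share in both groups, 34.7% and 33.7%, and Rela followed in vehicle with 28.4%.

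The mixture of classical inhibitors also differed between the groups. Nfkbia made up 74.7%, 73.1%, 73.3% and 73.3% of their summed RPKM in vehicle and 89.1%, 89.2%, 90.7% and 89.1% after LPS. Each group was tight and the gap between them was wide. Nfkbie held 14.4% ± 0.809 in vehicle and 3.51% ± 0.781 after LPS, and Nfkbib 11.96% ± 1.57 and 6.95% ± 1.47, without overlap for either. The ratio of summed inhibitor to summed subunit RPKM was 1.02, 0.819, 0.950 and 0.852 in vehicle and 3.86, 2.98, 2.85 and 3.33 after LPS. All LPS libraries were above all vehicle libraries in this ratio of transcript levels, which had means of 0.911 ± 0.0937 and 3.26 ± 0.450. With the longest transcript as the length, the means were 0.647 and 2.33. With CPM and no division by length they were 0.309 and 0.959, so the size of the ratio depended on the length used. Nfkbia made up most of the inhibitor sum in both groups, so the inhibitor side of this ratio mainly reflects that gene. Nfkb2 was counted as a subunit, although p100 also acts as an inhibitor. The ratio of Nfkbia to Rela in RPKM went from 1.87 ± 0.351 to 10.2 ± 1.81, and that of Tnfaip3 to Nfkbia from 0.118 ± 0.0187 to 0.365 ± 0.0474, again without overlap.

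**Figure D3:**
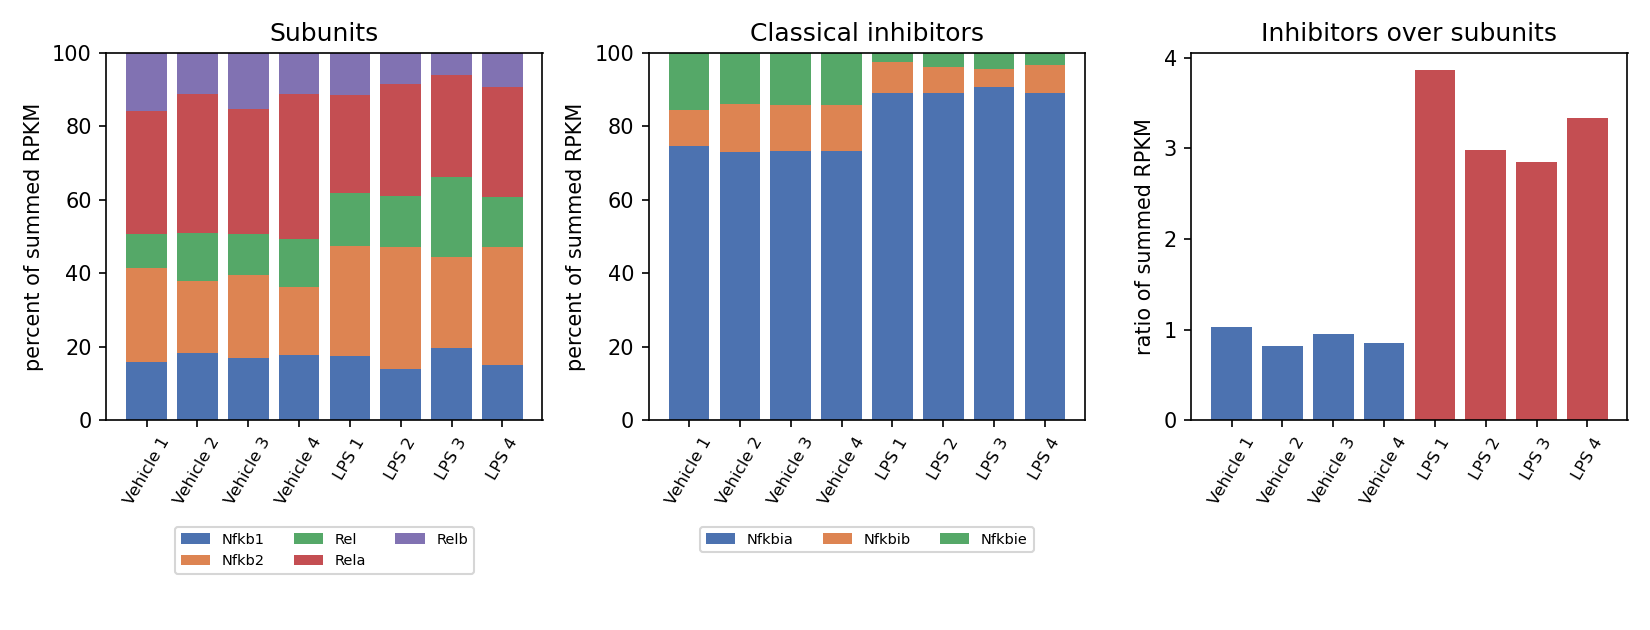
Stacked bars give the percent of the summed RPKM of the 5 subunits and of the 3 classical inhibitors held by each gene in each library, and plain bars give the ratio of summed inhibitors to summed subunits. Nfkbia holds 73.1% to 74.7% of the inhibitors in vehicle and 89.1% to 90.7% after LPS, and the ratio runs from 0.819 to 1.02 in vehicle and from 2.85 to 3.86 after LPS.

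The profiles of the 10 genes were compared over the 8 libraries as log2 CPM centred on the mean of each gene. Rela and Nfkbie were the closest, with a root mean square distance of 0.225, followed by Nfkb1 and Rela at 0.230 and Nfkb1 and Nfkbie at 0.246. Nfkbia and Nfkbiz were 0.361 apart and Nfkbiz and Tnfaip3 0.535, while Relb and Tnfaip3 were the farthest apart at 2.21. No pair of the NF-κB genes lay within 0.2. By contrast, 358 tested genes outside the NF-κB genes and lists lay within 0.2 of Rela, 889 of Nfkb1 and 41 of Nfkbie. Among 13711 tested genes with a symbol that are in neither the NF-κB genes nor the pathway and marker lists, the profile nearest to Tnfaip3 was that of Cemip2, a cell surface hyaluronidase, at 0.139. Cemip2 went from 22.0 to 28.2 CPM in vehicle to 541 to 611 CPM after LPS, with a log2 fold change of 4.56 (edgeR adjusted p 3.55e-08), and no other gene lay within 0.2 of Tnfaip3. Nearest to Nfkbiz was Zc3h12a, which encodes an RNase that degrades cytokine transcripts, at 0.157, with 18.7 to 28.1 CPM in vehicle and 202 to 338 CPM after LPS. Nearest to Nfkbia was Rac2 at 0.117, with 165 to 256 and 1401 to 1822 CPM, and nearest to Nfkbib was Osgin1 at 0.154, with 7.27 to 9.67 and 21.4 to 37.6 CPM.

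Nfkb1 lay 0.0407 from the proteasome subunit gene Psmb6, and 889 genes were within 0.2 of it. Rel lay 0.0471 from the lipoprotein receptor gene Apobr, with 379 genes within 0.2, and Rela 0.0726 from Rnpepl1, with 358. Nfkb2 was nearest to the predicted gene Gm37421 at 0.0894, which was counted at only 0.277 to 1.36 CPM, and 11 genes were within 0.2. The gene nearest to Relb was Thap7 at 0.126, and its 8.16 CPM in LPS replicate 3 against 19.3 to 19.9 CPM in the other LPS libraries follow from this choice by likeness, as do the values of the other nearest genes, and 22 genes were within 0.2 of Relb. Thap7 was not called (log2 fold change 0.40, edgeR adjusted p 0.232), but without LPS replicate 3 it was, at 0.63 with an adjusted p of 0.00941, within a range of 0.00284 to 0.489 over all alternatives. Nfkbie was nearest to the kinase gene Dyrk1b at 0.137, whose log2 fold change of 0.55 was called (edgeR adjusted p 0.0232, with 3 of 4 LPS libraries above the highest vehicle value). Within 0.2 of Nfkbie were 41 genes. The call of Dyrk1b was lost without vehicle replicate 2 or 4 or LPS replicate 2 or 4, with values of 0.47, 0.55, 0.46 and 0.51, and those of Dyrk1b and Rnpepl1 were lost with upper quartile normalization, at 0.39 and 0.34. With total counts alone Dyrk1b, Rnpepl1 and Thap7 turned to -0.12, -0.18 and -0.24, and with the GC trend removed all 3 were called, at 1.13, 0.94 and 0.73.

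The pathway was followed further through 5 lists of 78 genes in all, of which 76 were tested, 55 were called higher and 7 lower, with a median log2 fold change of 1.53 against -0.11 for all tested genes, of which 30.3% were called higher and 33.8% lower. Under total counts alone, given below for each list, 1980 of all 13847 genes were higher and 8439 lower. Among 8 other IκB-type and NF-κB-associated regulators, 6 were higher and 1 lower, with a median of 1.01, and 4 and 1 with a median of 0.34 under total counts alone. Bcl3, a nuclear IκB protein that binds p50 and p52 dimers, ran from 12.9 to 24.96 CPM in vehicle and from 63.4 to 109 CPM after LPS, a log2 fold change of 2.33 (SE 0.24, edgeR adjusted p 2.78e-05). Pdlim2, whose product promotes breakdown of nuclear p65, ran from 7.07 to 13.99 and from 28.9 to 41.5 CPM, with a log2 fold change of 1.88 (adjusted p 4.99e-05 in edgeR). Nkiras1, a small GTPase gene whose product binds IκB proteins, rose from 2.76 ± 0.623 to 6.95 ± 1.98 CPM, though opposite-strand exons of Rpl15 and Ube2e1 cover 14.99% of its exon bases. Nkrf, which encodes a repressor of NF-κB target genes, was the exception and fell, from 5.65 to 9.48 CPM in vehicle to 2.85 to 4.11 CPM after LPS, with a log2 fold change of -1.06 (edgeR adjusted p 0.00176).

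Of 13 genes of the IKK complex and the kinases upstream of it, 8 were higher and 2 lower, with a median log2 fold change of 0.53, whereas 4 were higher and 6 lower with a median of -0.16 under total counts alone. Of the core subunit genes, the kinase gene Chuk was called higher with a log2 fold change of 0.53 (edgeR adjusted p 0.00334), which turned to -0.16 and was not called with total counts alone. Ikbkb, the main catalytic subunit of the classical branch, had a log2 fold change of -0.12 (edgeR adjusted p 0.230) and Ikbkg, the regulatory subunit, one of 0.25 (adjusted p 0.0664), and neither was called. Their values depended on the alternative. With total counts alone both were called lower, at -0.80 and -0.44, and Ikbkb was also called lower with upper quartile normalization, at -0.28, but was at -0.058 without vehicle replicate 1. Ikbkg was called higher with DESeq2, with its size factors in edgeR and without vehicle replicate 1 or 3, at 0.30, 0.30, 0.31 and 0.28, but was not called at 0.16 without LPS replicate 3, 0.12 with the GC trend removed and 0.086 with upper quartile normalization. The largest rises of the list were in Tank, Ikbke and Map3k8. Tank, an adaptor of TBK1 and IKKε, ran from 45.1 to 65.7 CPM in vehicle and from 241 to 418 CPM after LPS, with a log2 fold change of 2.47 (edgeR adjusted p 8.78e-06), and LPS replicate 3 was the highest. Ikbke, which encodes IKKε, ran from 59.7 to 136 and from 478 to 591 CPM (log2 fold change 2.41, edgeR adjusted p 4.38e-05). Map3k8, a kinase held in check by binding to p105, ran from 25.3 to 32.3 and from 131 to 165 CPM (log2 fold change 2.40, edgeR adjusted p 3.97e-07). By contrast Tab1 and Map3k7, which encode a partner and the kinase of the TAK1 complex that activates IKK, were lower in all 4 LPS libraries than in any vehicle library, with log2 fold changes of -0.97 and -0.46 (edgeR adjusted p 0.00128 and 0.00181). Tab2 and Tab3 of the same list were called higher, at 0.41 and 0.86 (edgeR adjusted p 0.0326 and 0.00407). These 2 genes were not followed under the alternatives.

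Of 15 TRAF adaptor and ubiquitin ligase genes, 14 were tested, 9 were higher and 1 was lower, with a median log2 fold change of 0.49, and 6 were higher and 6 lower with a median of -0.21 under total counts alone. The median of 0.49 fell to 0.31 without LPS replicate 3 and to 0.32 with upper quartile normalization. The number called higher was 8 with the replicate block, 6 with upper quartile normalization and 10 with DESeq2 size factors in edgeR. Traf1, an adaptor of TNF receptors, measured 3.08, 1.35, 2.47 and 1.14 CPM in vehicle and 246, 366, 373 and 391 CPM after LPS. The vehicle values were all very low and the LPS values all high, with a log2 fold change of 7.41 (SE 0.36, edgeR adjusted p 3.54e-07). Peli1 and Birc3, both ubiquitin ligase genes, rose from 49.6 ± 7.60 to 268 ± 68.4 CPM and from 53.1 ± 15.8 to 273 ± 34.2 CPM. Ube2n, which encodes an enzyme that builds ubiquitin chains in this pathway, fell from 15.4 ± 2.71 to 5.90 ± 0.680 CPM, with a log2 fold change of -1.39 (edgeR adjusted p 5.75e-05). Ube2v1 was not tested for its low counts, and exons of Gm20431 on the same strand cover 61.5% of its exon bases.

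Among 10 deubiquitinase genes and partners of A20, 6 were called higher and 4 were not called, with a median log2 fold change of 0.76, and 4 were higher and 3 lower with a median of 0.064 under total counts alone. Several partners of A20 rose as well. Tnip3 and Tnip1, which encode A20-binding proteins, rose from 50.8 ± 5.21 to 626 ± 182 CPM and from 35.5 ± 8.82 to 423 ± 77.4 CPM, with log2 fold changes of 3.62 and 3.57 (edgeR adjusted p 1.24e-06 and 1.21e-06). Tax1bp1, an adaptor that brings A20 to its substrates, rose from 138 ± 4.41 to 473 ± 105 CPM, with a log2 fold change of 1.77. Cyld, a deubiquitinase that removes chains from IKK regulators, was not called, with 80.5 to 94.3 CPM in vehicle and 76.7 to 142 CPM after LPS (log2 fold change 0.19, edgeR adjusted p 0.387), and turned to -0.037 without LPS replicate 3 and to -0.51, called lower, with total counts alone, while its highest value was 0.30 without LPS replicate 1.

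**Figure D4:**
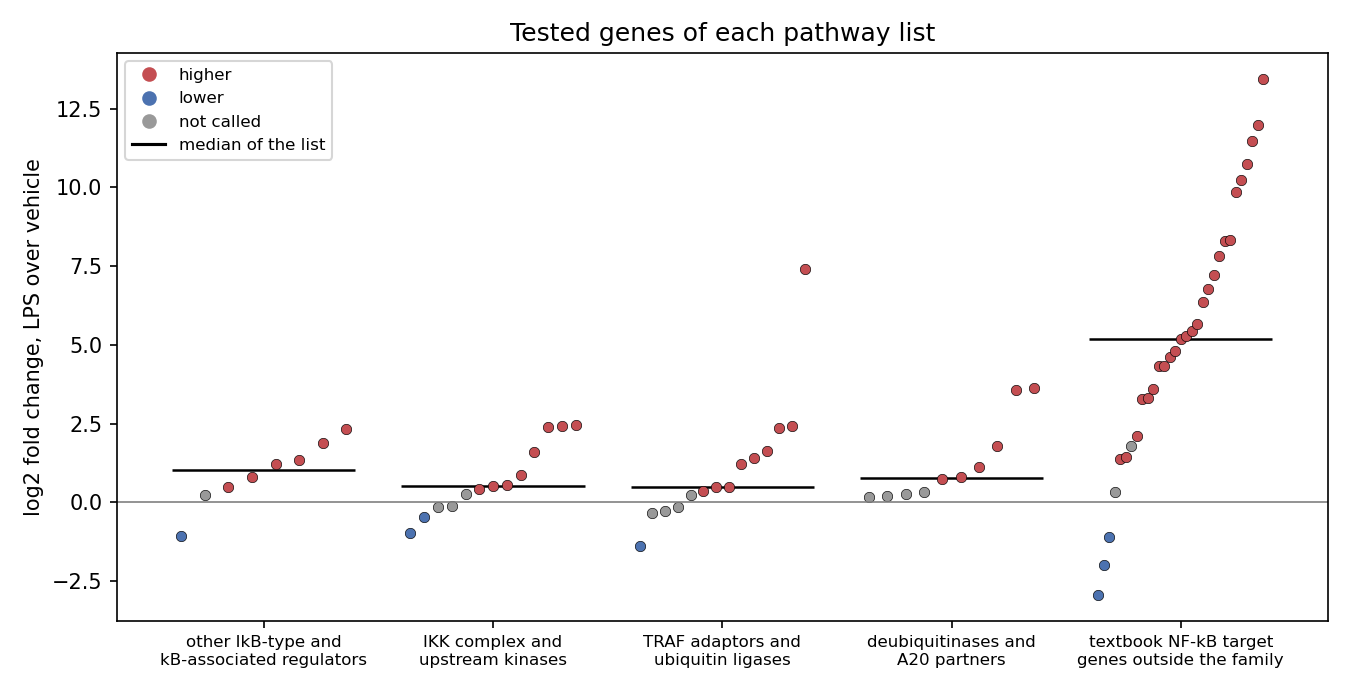
Log2 fold change, LPS over vehicle, of each tested gene in 5 lists of the NF-κB pathway under TMM, coloured by its edgeR call, with a line at the median of each list. Medians are 1.01, 0.53, 0.49, 0.76 and 5.18, and under total counts alone those of the IKK and TRAF lists turn to -0.16 and -0.21, while without LPS replicate 3 that of the TRAF list is 0.31.

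The list of 32 textbook target genes outside the family lay far above the rest, with 31 tested (all but Il23a), 26 higher, 3 lower and a median log2 fold change of 5.18, and the same counts with a median of 4.53 under total counts alone. Nos2, which encodes the inducible nitric oxide synthase, ran from 0.497 to 1.62 CPM in vehicle and from 11219 to 12178 CPM after LPS, the largest log2 fold change of the list at 13.45 (SE 0.41, edgeR adjusted p 3.55e-08). The cytokine gene Il6 had 12, 0, 2 and 0 counts in vehicle and 294 to 776 CPM after LPS, with a fitted log2 fold change of 11.97 (edgeR adjusted p 1.64e-06), and 14.16 without vehicle replicate 1. Il12b, which encodes a subunit shared by the cytokines IL-12 and IL-23, had 1, 1, 0 and 0 counts in vehicle and 771, 197, 3863 and 286 after LPS. LPS replicate 3 stood at 180.2 CPM and the others at 10.7 to 46.1 CPM, and the fitted log2 fold change of Il12b was 11.47, or 10.09 without that library. Csf2 had 0 counts in all vehicle libraries and 0.703 to 3.05 CPM after LPS, and the median of the list is the same with Csf2 at its bound for a count of 0. The exceptions were Ccnd1, a cell cycle gene, Cd83, a surface protein of activated antigen-presenting cells, and Myc, a growth-promoting transcription factor. Opposite-strand exons of LTO1 cover 23.4% of the exon bases of Ccnd1. Ccnd1 fell from 121 to 298 CPM in vehicle to 25.7 to 44.7 CPM after LPS, and Cd83 from 133 to 249 CPM to 15.7 to 95.9 CPM, with log2 fold changes of -2.94 and -2.003 (edgeR adjusted p 3.16e-05 and 0.00353). Myc fell from 17.025 ± 4.61 to 7.90 ± 3.31 CPM (log2 fold change -1.11, edgeR adjusted p 0.0144), a call that was lost without vehicle replicate 4, at -0.90 with an adjusted p of 0.0595 in a range of 0.00221 to 0.0595 over all alternatives. Icam1 and Mmp9 were tested and not called, with log2 fold changes of 0.32 and 1.77. Icam1 ran from -0.34 with total counts alone to 0.49 without vehicle replicate 3, and Mmp9 was at 1.07 with the replicate block and turned to -0.18 without LPS replicate 1, where it measured 604 CPM against 30.5 to 60.4 CPM in the other LPS libraries.

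The cultures were checked for their cell types with fixed marker lists, where 30.3% of all tested genes were called higher and 33.8% lower. All 11 microglial markers were counted in every library, and their summed level was 7477, 8662, 10372 and 8413 CPM in vehicle and 1945, 2140.3, 1918 and 2412 CPM after LPS, with 9 called lower and 2 not called. The most abundant microglial marker was C1qa in vehicle and C1qb after LPS. The 8 astrocyte markers summed to 28.7, 43.3, 18.2 and 41.3 CPM in vehicle and 119, 39.4, 43.7 and 47.8 CPM after LPS, led by Aldh1l1 and then by Gja1, with 1 higher and 3 lower. Sums of the 8 oligodendrocyte lineage markers, led by Mbp, fell within 92.9 to 146 CPM in vehicle and 17.6 to 23.5 CPM after LPS, with 4 of 6 tested called lower. The 7 neuron markers summed to 7.29 to 21.2 CPM and 2.75 to 10.3 CPM, led by Tubb3 and then Gad1, with 3 of 5 tested called lower. For the 6 endothelial markers the sums were 37.1 to 83.4 and 196 to 272 CPM, led by Flt1, with 3 of 4 tested called higher, while Cldn5 and Tek had at most 3 counts in every library. The 7 fibroblast or pericyte markers summed to 0.497 to 4.31 and 5.30 to 21.4 CPM, led by Pdgfrb and then Dcn, with 1 of 2 tested called higher and Rgs5 at no more than 3 counts. The 9 lymphocyte or granulocyte markers summed to 3.04 to 8.30 CPM, led by Cd4, and to 573 to 1175 CPM after LPS, nearly all of it from S100a8, with 2 of 3 tested called higher and 1 lower, while Cd3e, Cd8a, Nkg7, S100a9 and Ly6g were among those with at most 3 counts. The part of cells other than microglia in the values of the NF-κB genes was not tested.

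The promoters of the NF-κB genes were searched for the κB consensus, the degenerate motif of 10 letters bound by NF-κB dimers. The search covered both strands of the 250 bases before each gene start in RefSeq (GRCm38.p6). Of the 10 genes, 7 had an entry, with 10 windows among them, and Nfkb1, Relb and Nfkbiz had none. At least 1 match was found for 5 of these 7 genes, Nfkb2, Rel, Nfkbia, Nfkbie and Tnfaip3, and no match for Rela and Nfkbib. The window of Nfkbib lies within the gene of GENCODE vM21, past its 5′ end, so the bases before that end were not searched. Of all 32851 promoters 7.25% held a match, and 8.23% of 27025 gene symbols did in any promoter. In the target gene list 9 of 21 genes with a window held a match, as did 3 of 7 deubiquitinases and A20 partners, 2 of 10 IKK genes, 1 of 13 TRAF genes and 1 of 6 other regulators. A match describes letters and does not show binding.

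The promoter of Nfkbia is printed whole because this gene had the highest level per length in both groups, and its match, in capitals, begins 29 bases before the gene start. It is read 5′ to 3′ on the minus strand of GRCm38.p6 at chr12:55492648-55492897.
Nfkbia: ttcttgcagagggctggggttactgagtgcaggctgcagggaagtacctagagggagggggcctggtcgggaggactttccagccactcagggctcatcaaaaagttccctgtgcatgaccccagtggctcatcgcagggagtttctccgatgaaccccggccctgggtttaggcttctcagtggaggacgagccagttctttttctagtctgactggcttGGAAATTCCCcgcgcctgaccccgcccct

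The matches of the other genes are shown with their neighbouring bases, so that the letters can be compared, again 5′ to 3′ on the strand of the gene in GRCm38.p6 with the match in capitals. Both stretches of Tnfaip3 are on the minus strand, at chr10:19015517-19015544 and chr10:19015411-19015431, and their matches begin 125 and 12 bases before the RefSeq gene start. In GENCODE vM21 these matches lie within the gene, past its 5′ end, and outside its exons. The stretch of Rel at chr11:23771042-23771070, on the minus strand, holds overlapping matches over 11 bases that begin 92 bases before the start. That of Nfkbie at chr17:45555585-45555612 is on the plus strand, with its match 106 bases before the start. Nfkb2 has 3 windows on the plus strand, with stretches at chr19:46304689-46304717 and chr19:46304717-46304736 in window 1, chr19:46305450-46305477 in window 2 and chr19:46305696-46305723 in window 3, and the first of these holds overlapping matches over 11 bases. All 3 windows lie within the gene of GENCODE vM21, and the matches of windows 1 and 3 in its exons.
Tnfaip3, far match: actcacgcgGGGACACCCCggggcggga
Tnfaip3, near match: atttccatcGGAAATCCCCct
Rel: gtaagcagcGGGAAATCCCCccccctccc
Nfkbie: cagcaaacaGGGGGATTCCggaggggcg
Nfkb2, window 1, far matches: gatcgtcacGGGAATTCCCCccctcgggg
Nfkb2, window 1, near match: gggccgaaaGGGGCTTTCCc
Nfkb2, window 2: ccgacggcaGGAATGTCCCcacaaaagc
Nfkb2, window 3: ggtattttcGGGACTTTCCtaagcagca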

How the data were processed

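RNA of 4 vehicle and 4 LPS cultures was sequenced in single-end reads. The authors filtered the reads with HTSeqGenie, aligned them to GRCm38 with GSNAP and deposited the raw count of uniquely aligned reads per Ensembl gene. The paper names a TruSeq RNA Sample Preparation Kit and a HiSeq, the labels a TruSeq Stranded mRNA kit and a NovaSeq, and neither gives the annotation release or the use of strand. Symbols, exons and GC content came from GENCODE vM21, which named 52489 of 52636 identifiers, and promoters from RefSeq.

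Counts were tested with edgeR 4.0.16 in R 4.3.3 (TMM, filterByExpr at 10 counts and 15 in total, two-sided quasi-likelihood F test with robust fitting), with Benjamini-Hochberg adjustment over all 13847 tested genes and a threshold of 0.05. The p-values treat the libraries as independent biological replicates. DESeq2 1.42.0 gave an alternative Wald test. Both fits were first run on simulated counts in which few genes changed, with equal numbers raised and lowered. In the data 64.1% of tested genes were called, so this run does not bear on the choice of scaling. Tables used Python 3.11.15 with pandas 2.3.3, numpy 2.4.6 and scipy 1.17.1, and matplotlib 3.10.9 drew the figures. RPKM divided CPM by the union of a gene's exons.

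The NF-κB genes and all lists were chosen with earlier results of these data known. The genes named are the 10 NF-κB genes, up to 3 of the highest and up to 3 of the lowest called log2 fold changes of each pathway list, and the nearest profile of each NF-κB gene. Other genes named, such as Cyld, Chuk, Ikbkb, Ikbkg, Tab2, Tab3, Csf2, Icam1, Mmp9 and Ube2v1, were picked after their values were seen. Alternatives were DESeq2, other normalizations and filters, stricter thresholds, a replicate block, each library left out, and other lengths for the shares. Removal of a lowess trend of log2 counts with GC content in each library, alone and with the block, was chosen after seeing the data.

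Neither labels nor paper say if a vehicle and an LPS library of equal replicate number came from 1 culture. Each library's deviation from its group mean was correlated across 8010 genes between such libraries, with r of 0.373, 0.196, 0.172 and 0.108 in the order of the numbers, all above the 0.1 taken here as the limit for giving values with a block. Unequal numbers exceeded it as well, with 0.146 for vehicle 2 and LPS 4 and 0.137 for vehicle 4 and LPS 2. For the bound of a list median, a group at a count of 0 was set to a floor of 3 counts, which covers counting error only.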

Additional observations from a re-analysis of the deposited data

Results flagged for a closer look

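In each group of 4 libraries, the gap between the highest or lowest library and its nearest neighbour was divided by the range of the group. Of 114 groups tested, 16 had a ratio above the critical value for 4 libraries, where chance alone gives about 1 in 20 groups that are independent. These were not, since shares come from the same genes and nearest profiles were chosen for their likeness. LPS replicate 3 was the library apart in 8 of the 16, among them the nearest profiles Thap7 and Osgin1. Among the 20 groups of the NF-κB genes, 2 were past the critical value.

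Relb measured 33.3 CPM in LPS replicate 3 and 64.6 to 68.6 CPM in the other LPS libraries, a ratio of 0.887. Nfkbiz measured 568 CPM in LPS replicate 3 and 709 to 717 CPM in the others, a ratio of 0.943. The share of Rel among the subunits was 22.0% in LPS replicate 3 and 13.6% to 14.5% in the others (ratio 0.899). The share of Nfkbia among the classical inhibitors was 90.7% in LPS replicate 3 and 89.1% to 89.2% in the others (ratio 0.918), and 74.7% in vehicle replicate 1 and 73.1% to 73.3% in the other vehicle libraries (ratio 0.839).

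In the LPS group, replicate 3 was also apart for Tank, at 418 CPM and 241 to 257 in the others (ratio 0.907), for Tax1bp1, at 629.6 CPM and 412 to 435 (ratio 0.894), for Thap7, at 8.16 CPM and 19.3 to 19.9 (ratio 0.947), and for Osgin1, at 21.4 CPM and 36.7 to 37.6 (ratio 0.941). In the vehicle group, replicate 3 was apart for Nkiras1, at 1.84 CPM and 2.98 to 3.20 in the others (ratio 0.838). Vehicle replicate 1 was apart for Tab1, at 26.5 CPM and 21.0 to 21.9 in the others (ratio 0.847), for Tax1bp1, at 145 CPM and 136 to 137 (ratio 0.878), and for Il6, at 0.420 CPM and 0 to 0.0634 (ratio 0.849). It was likewise apart for Ccnd1, at 121 CPM and 281 to 298 (ratio 0.907), and for Apobr, at 84.8 CPM and 96.3 to 96.6 (ratio 0.973). For Mmp9, LPS replicate 1 was apart, at 604 CPM and 30.5 to 60.4 in the others (ratio 0.948).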

How the results depend on the processing

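Of 170 values of the 10 NF-κB genes under the alternatives, 166 kept their direction and their side of the threshold, 1 was no longer called and 3 changed sign, all 4 with total counts alone. There the log2 fold change was 0.14 for Nfkb1, -0.093 for Rela, -0.36 for Relb and -0.036 for Nfkbie (adjusted p 0.159, 0.617, 0.272 and 0.864, the highest over the alternatives for Nfkb1, Rela and Nfkbie). The 32 other genes named by rule kept both in 527 of 541 values, lost a call in 8, gained one in 3 and changed sign in 3, namely Rnpepl1 at -0.18, Thap7 at -0.24 and Dyrk1b at -0.12 with total counts alone. Of 117 values of 7 genes picked after their values were seen, 105 kept both, 6 gained a call and 6 changed sign, namely Chuk at -0.16, Ikbkg at -0.44, Cyld at -0.51 and Icam1 at -0.34 with total counts alone, and Cyld and Mmp9 when a library was left out, in ranges of -0.037 to 0.30 and -0.18 to 2.35. The number of NF-κB genes called higher was 9 except for 8 at an adjusted p under 0.01, and 6 with total counts alone or with an absolute log2 fold change of at least 1. Across all genes, 1980 were higher and 8439 lower with total counts alone, against 4194 and 4680 with TMM, and 5216 were called, 2223 higher and 2993 lower, with the minimum log2 fold change of 1, which is stricter by construction. For the other changes the cause was not tested.

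With each library left out in turn, 8007 to 9300 genes were called, and 9 NF-κB genes were called higher each time. The log2 fold change ran from 0.56 to 0.82 for Nfkbie, 0.48 to 0.67 for Rela, 0.20 to 0.48 for Relb, 1.87 to 2.22 for Nfkbib and 4.59 to 4.74 for Tnfaip3. With the replicate block, 9019 genes were called and none of the 49 genes followed under the alternatives changed its call. With other lengths, with none, or with the GC trend removed, every share kept the direction of its difference between the group means. With the block, the adjusted p was 0.0251 for Nfkbie, 0.00990 for Rela and 0.388 for Relb.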
